A study of Mus musculus with 12 samples.

Results

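The aldehyde dehydrogenases are enzymes that oxidise aldehydes to carboxylic acids with NAD+ or NADP+ as the acceptor. The genes described here are 9 members of the mouse family, Aldh1a1, Aldh1a7, Aldh1b1, Aldh2, Aldh3a2, Aldh4a1, Aldh6a1, Aldh7a1 and Aldh9a1. They were taken by gene name from the 20457 genes of the expression table, and each name matched 1 gene. Of the 9 members, 8 passed the filter on low values (at least 3 of the 12 libraries at 10 or more) and were tested among 14803 genes. Aldh1a7 did not pass and is given by its reads.

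RNA was sequenced from bone marrow hematopoietic stem cells of C57BL/6 mice in 4 groups of 3 libraries. The groups were old IL27RA+, old IL27RA-, young IL27RA+ and young IL27RA- cells, where old mice were 28 months and young mice 2 months of age and IL27RA is the surface receptor for the cytokine IL27 used in the sort. The labels name no transgene and no treatment in any group, and the sorting gates for stem cells were not given in the sources used here. Each library was made from 50 cells with Smart-Seq2, which amplifies full-length cDNA and uses no molecular identifiers. Libraries held between 11669083 and 24153167 reads in genes. The labels do not say whether the libraries within a group are from separate animals, or whether both fractions came from the same ones. The p-values therefore cover the spread between these samples alone, and that spread may be technical. Old IL27RA- replicate 1 carries a label that calls it young, although both its title and its stated age put it with the old libraries. The stem cell label was checked against the marker genes Procr, Slamf1, Kit, Ly6a, Fgd5, Hlf, Mecom, Meis1, Gata2, Ctnnal1 and Tie1, and each of these was at 10 or more normalized counts in all 12 libraries.

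High aldehyde dehydrogenase activity is a property by which hematopoietic stem and progenitor cells are isolated with fluorescent substrates. Aldh1a1 and its relatives convert retinaldehyde to retinoic acid, the ligand of the retinoic acid receptors. Aldh2, a mitochondrial enzyme, removes acetaldehyde and other small reactive aldehydes, and mouse stem cells that lack it together with the Fanconi anaemia DNA repair pathway are lost. Other members act at fixed steps of amino acid, fatty aldehyde and carnitine metabolism.

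Aldh1a1 and Aldh1a7 lie on chromosome 19 on opposite strands and share sequence with each other, so the 250 bases before each start site are shown here, from the RefSeq promoter table of the build GRCm38.p6. The Aldh1a1 window is chr19:20601718-20601967 on the plus strand, before the start of its protein-coding transcript at 20601968. The same source lists a second Aldh1a1 start at 20492583, whose window held none of the motifs searched and is not shown. The Aldh1a7 window is chr19:20727557-20727806 on the minus strand, before its start at 20727556. Both are printed 5′ to 3′ along the gene, and capitals mark matches to the CCAAT box, to the TATA box (searched as TATAAA) and to the GATA motif (searched as GATAA).
Aldh1a1: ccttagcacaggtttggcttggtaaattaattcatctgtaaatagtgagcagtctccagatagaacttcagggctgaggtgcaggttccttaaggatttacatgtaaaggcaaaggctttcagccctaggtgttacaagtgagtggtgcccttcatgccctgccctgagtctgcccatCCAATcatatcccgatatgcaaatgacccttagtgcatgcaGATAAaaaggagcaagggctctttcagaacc
Aldh1a7: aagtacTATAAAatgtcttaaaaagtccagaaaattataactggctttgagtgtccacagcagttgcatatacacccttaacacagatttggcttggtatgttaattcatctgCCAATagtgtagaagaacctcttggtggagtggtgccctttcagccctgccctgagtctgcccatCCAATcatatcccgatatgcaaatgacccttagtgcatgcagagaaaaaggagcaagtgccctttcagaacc

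The last 94 bases before the starts aligned without a gap and differed by 3 substitutions. Counted from the base just before the start, with the Aldh1a1 base first and the Aldh1a7 base last, these were T29G, G15T and T12C. The CCAAT match 72 bases before the start stood in both windows. The GATAA match, whose first base lies 31 bases before the start, stood in Aldh1a1, and T29G falls within it. Aldh1a7 held a further CCAAT match at 137 bases and a TATAAA match at 244 bases. Of 32851 windows of the same length in the table, 33.8% held CCAAT, 22.6% held GATAA, 12.4% held TATAAA and 14.0% held AGGTCA, a nuclear receptor half-site, on either strand. AGGTCA had no match in the Aldh1a1 and Aldh1a7 windows shown. Motif matches were found on both strands and describe the letters, not binding. Promoter entries were found for 7 of the 9 members.

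The transcripts of Aldh1a1 and Aldh1a7 were identical at 90.3% of 2011 aligned bases. Of all 50-base windows of their longest protein-coding transcripts, 6.54% in Aldh1a1 and 7.49% in Aldh1a7 occurred in the other gene. With 100-base windows these shares were 0.0443% for Aldh1a1 and 0.0508% for Aldh1a7. How reads that matched both genes were counted was not given in the sources used here.

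Levels between genes were compared as normalized counts per kilobase of exon, averaged over the 12 libraries. Exon length was the union of all annotated exons of a gene, 4937 bases for Aldh1a1 and 5126 for Aldh2. Other lengths, such as those of single transcripts, could change the order and were not used. A normalized count is the read count divided by the library's size factor. Aldh2 stood highest with 1768 normalized counts per kb, at the 97.7th percentile of all tested genes, and Aldh1a1 followed with 1508 at the 97.0th percentile. The enzyme genes Aldh9a1 and Aldh6a1 had 380 and 326 normalized counts per kb, Aldh7a1 had 191 and Aldh3a2 had 103. Aldh1b1 with 52.5 and Aldh4a1 with 45.8 normalized counts per kb were the lowest tested members, and Aldh1a7 averaged 1.84. The spread between libraries of a group, pooled over groups on the log2 scale, was an SD of 0.30 for Aldh1a1, and lay between 0.38 and 0.51 for Aldh2, Aldh3a2, Aldh6a1, Aldh7a1 and Aldh9a1. It was 2.26 for Aldh4a1 and 2.93 for Aldh1b1, which had single libraries with no or almost no reads. Neighbours in the order of levels whose ranges over the 12 libraries overlap are not separated by it.

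**Figure D1:**
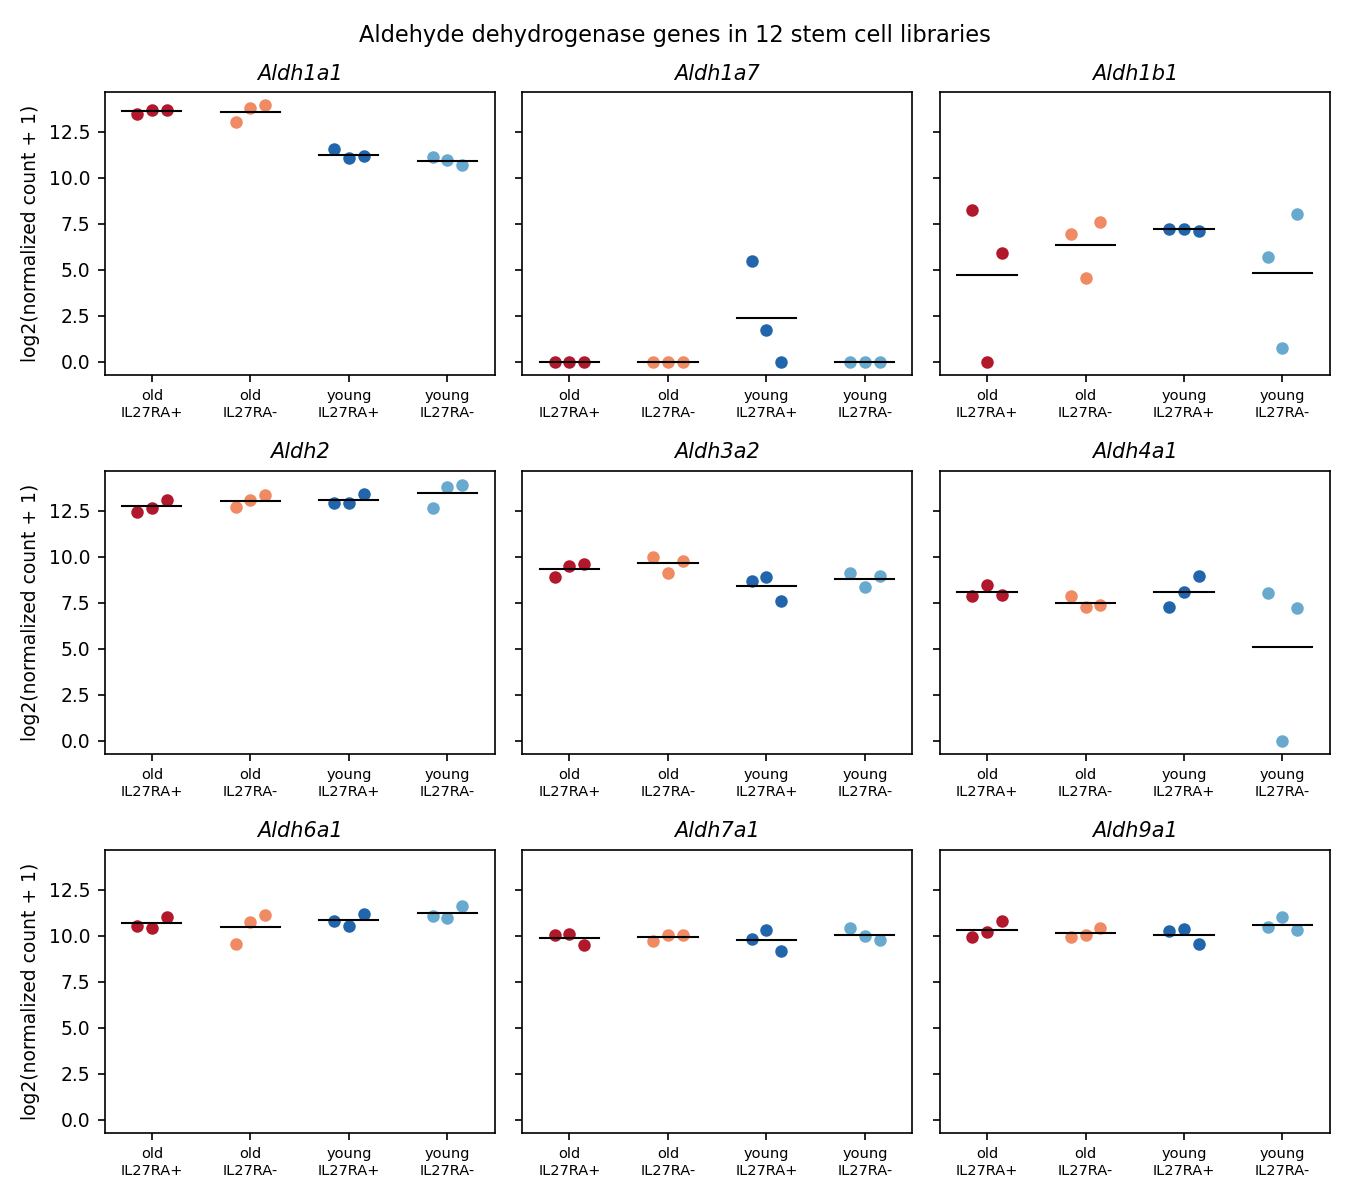
Deposited log2(normalized count + 1) of the 9 aldehyde dehydrogenase genes (y axis, shared by all panels) in the 4 groups (x axis), with 1 point per library and a line at the mean of 3 libraries. Aldh1a1 lies higher in all 6 old libraries than in all 6 young ones, while Aldh4a1 and Aldh1b1 have single libraries near 0.

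Aldh1a1, the cytosolic retinaldehyde dehydrogenase, was the member that rose with age. It had 11483, 12957 and 13257 normalized counts in old IL27RA+ libraries and 8342, 13951 and 15957 in old IL27RA- libraries. Young IL27RA+ libraries had 2986, 2170 and 2299 normalized counts and young IL27RA- libraries 2272, 1989 and 1653. The lowest old library lay above the highest young library, and the ages did not overlap for 2.06% of all tested genes. Means were 12566 ± 949 in old IL27RA+, 12749.7 ± 3947 in old IL27RA-, 2485 ± 439 in young IL27RA+ cells and, in the young IL27RA- group, 1971 ± 310 (SD, n = 3 each). Averaged over both sorted fractions, old minus young was 2.50 ± 0.17 on the log2 scale (SE, 95% interval 2.13 to 2.87), a fold of 5.66 with an interval of 4.38 to 7.31 (limma adjusted p = 6.84e-06). All differences are in log2(normalized count + 1). The added 1 shrinks differences between low values, while single libraries at 0 can widen them. For Aldh4a1, with 1 library at 0, the averaged old to young fold was 2.30, against a ratio of means of 1.04. In a bulk sample, fewer cells of a type and less RNA per cell cannot be told apart.

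The age difference of Aldh1a1 was called within each fraction. It was 2.35 ± 0.24 (SE) in IL27RA+ cells (limma adjusted p = 0.00111) and 2.65 ± 0.24 in IL27RA- cells (adjusted p = 0.000324). When the IL27RA- comparison was fitted on its 6 libraries alone, the call was lost at the same difference (limma adjusted p = 0.102). That fit called 0 genes of the whole table. Leaving out any 1 library kept the call of Aldh1a1. Of the 8 tested members, 1 was called in the averaged comparison, where 1.85% of all tested genes were called. It was called higher, as were 1.38% of all tested genes, while 0.473% were called lower. The same count was 1 of 8 in IL27RA+ cells, against 0.426% of all tested genes, and 1 of 8 in IL27RA- cells, against 0.669%. Aldh1a1 had the smallest p of the 14803 tested genes in all 3 age comparisons. The comparisons share libraries and are not independent of each other.

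Aldh1a7, a close rodent relative of Aldh1a1, was seen in 2 of 12 libraries. Young IL27RA+ replicate 1 had 46 reads (43.2 normalized counts) and young IL27RA+ replicate 2 had 2 reads (2.3 normalized counts). All 6 old libraries, the third young IL27RA+ library and the 3 young IL27RA- libraries had 0 reads. A count of 0 allows up to 3 reads, which is 2.77 to 3.77 normalized counts in the old libraries, and this floor covers counting error only, because PCR reads without molecular identifiers are not independent molecules. The old libraries, in which Aldh1a1 was highest, thus held no read assigned to Aldh1a7. Its levels were not tested.

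Aldh1b1, a mitochondrial relative that oxidises acetaldehyde and retinaldehyde, was measured too unevenly to compare. It had 303, 0 and 59.8 normalized counts in old IL27RA+, 122, 22.8 and 191 in old IL27RA-, 150.4, 149 and 138 in young IL27RA+ and 50.9, 0.7 and 259 in young IL27RA- libraries. The value of 0.7 is 1 read. The ages overlapped in both fractions. The averaged difference, old minus young, was -0.47 ± 1.39 (SE, adjusted p = 0.916).

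Aldh2 was abundant at both ages and was not called. It had 5538, 6459 and 8825 normalized counts in old IL27RA+ libraries and 6774, 8560.2 and 10670 in old IL27RA- libraries. Young IL27RA+ libraries had 7670.1, 7633 and 10790 normalized counts and young IL27RA- libraries 6426, 14344 and 15049. The ages overlapped in both fractions. The averaged difference, old minus young, was -0.36 ± 0.22 (SE, interval -0.83 to 0.10, adjusted p = 0.468), an interval that lies below the one of Aldh1a1.

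In the make-up of the family's transcripts, the share of Aldh1a1 did not overlap between the ages. Aldh1a1 made up 49.7% ± 3.79 of the summed 9 members in old libraries (range 43.6% to 53.8%) and 13.2% ± 4.37 in young libraries (range 7.28% to 19.3%; SD, n = 6 each). Aldh2 made up 29.5% (24.4% to 34.1%) in old libraries and 54.4% (42.4% to 63.9%) in young libraries. The ratio of Aldh1a1 to Aldh2 per kb was 1.28 to 2.15 in old libraries and 0.114 to 0.404 in young libraries. Aldh1a1 therefore stood above Aldh2 in all 6 old libraries and below it in all 6 young libraries. The sum of the 9 members was 5145 ± 960 normalized counts per kb in old and 3606 ± 722 in young libraries (SD, n = 6 each). Without Aldh1a1, the sum of the other 8 was 2581 ± 497 in old and 3155 ± 787 in young libraries. These shares, ratios and sums follow from the values above, depend on the exon lengths used and were not tested.

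**Figure D2:**
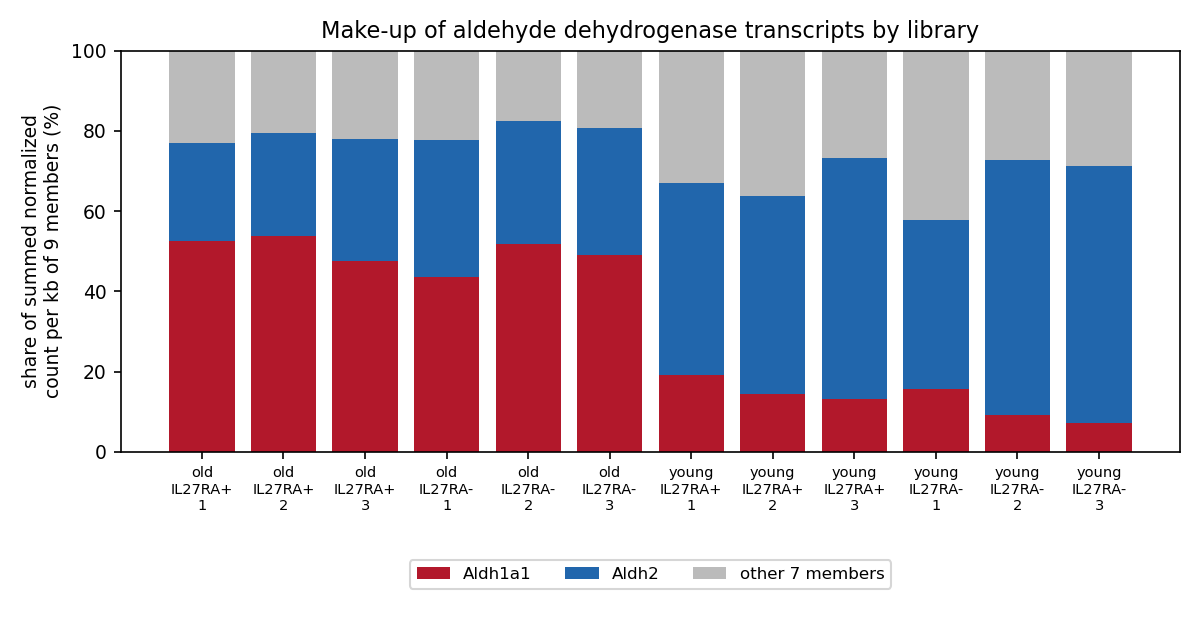
Share of each library's summed normalized count per kb of the 9 members (y axis, percent, stacked bars) that fell to Aldh1a1, Aldh2 and the other 7 members, for the 12 libraries (x axis, named by age, fraction and replicate). Aldh1a1 holds 43.6% to 53.8% in the old libraries and 7.28% to 19.3% in the young ones.

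Aldh3a2, the membrane-bound enzyme that oxidises long-chain fatty aldehydes, had the second smallest p of the members in the averaged age comparison but was not called. It had 486, 716 and 792 normalized counts in old IL27RA+ libraries and 1024, 557 and 884 in old IL27RA- libraries, against 415, 481 and 191 in young IL27RA+ and 558, 331 and 496 in young IL27RA- libraries. The ages did not overlap in IL27RA+ cells, where the groups of 16.9% of all tested genes did not overlap either, and overlapped by less than 1 normalized count in IL27RA- cells. The averaged difference was 0.88 ± 0.31 (SE, interval 0.22 to 1.54), with a limma adjusted p of 0.185. Aldh1a1 and Aldh3a2 were the 2 of 8 members with an unadjusted p under 0.05 in this comparison, against 15.1% of all tested genes.

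Aldh9a1, which acts in carnitine synthesis and on aldehydes from polyamines, had 995, 1169.6 and 1798 normalized counts in old IL27RA+ libraries and 974, 1069 and 1351 in old IL27RA- libraries. Young IL27RA+ libraries had 1205, 1320.4 and 760.0 normalized counts and young IL27RA- libraries 1449.5, 2072 and 1260.2. The ages overlapped in both fractions, with an averaged difference of -0.11 ± 0.23 (SE, interval -0.59 to 0.38, adjusted p = 0.878).

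Aldh6a1, the methylmalonate semialdehyde dehydrogenase of valine and thymine breakdown, had 1495, 1396 and 2103 normalized counts in old IL27RA+ libraries and 742, 1710 and 2216 in old IL27RA- libraries. Young IL27RA+ libraries had 1809, 1464 and 2356 normalized counts and young IL27RA- libraries 2173, 1969 and 3185. The ages overlapped in both fractions, with an averaged difference of -0.46 ± 0.26 (SE, interval -1.02 to 0.09, adjusted p = 0.428). Of its exon bases, 18.6% overlap Bbof1 on the opposite strand, and Smart-Seq2 libraries do not mark strand, so reads there cannot be told apart.

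Aldh7a1, which acts in lysine breakdown and in making betaine from choline, had the narrowest range over the libraries of the tested members. It had 1042, 1095 and 731 normalized counts in old IL27RA+ libraries and 853, 1050.3 and 1072 in old IL27RA- libraries, against 923, 1279 and 576 in young IL27RA+ and 1381, 999.7 and 889.5 in young IL27RA- libraries. The ages overlapped, and the averaged difference was -0.01 ± 0.24 (SE, interval -0.51 to 0.50, adjusted p = 0.991). Its range over the 12 libraries was 1.26 on the log2 scale, against 3.27 for Aldh1a1.

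Aldh4a1, the mitochondrial enzyme of the last step of proline breakdown to glutamate, had 233, 349 and 239 normalized counts in old IL27RA+ libraries and 233, 154 and 168 in old IL27RA- libraries. Young IL27RA+ libraries had 152, 272 and 489 normalized counts and young IL27RA- libraries 264, 0 and 147. The ages overlapped, and the averaged difference of 1.20 ± 1.05 (SE, adjusted p = 0.656) rests on the library with 0 reads. Without young IL27RA- replicate 2 it was -0.07. The ratio of the old mean to the young mean of its normalized counts was 1.04. Of the 50-base windows of its longest protein-coding transcript, 45.0% also occur in the overlapping gene Gm21969 on the same strand.

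**Figure D3:**
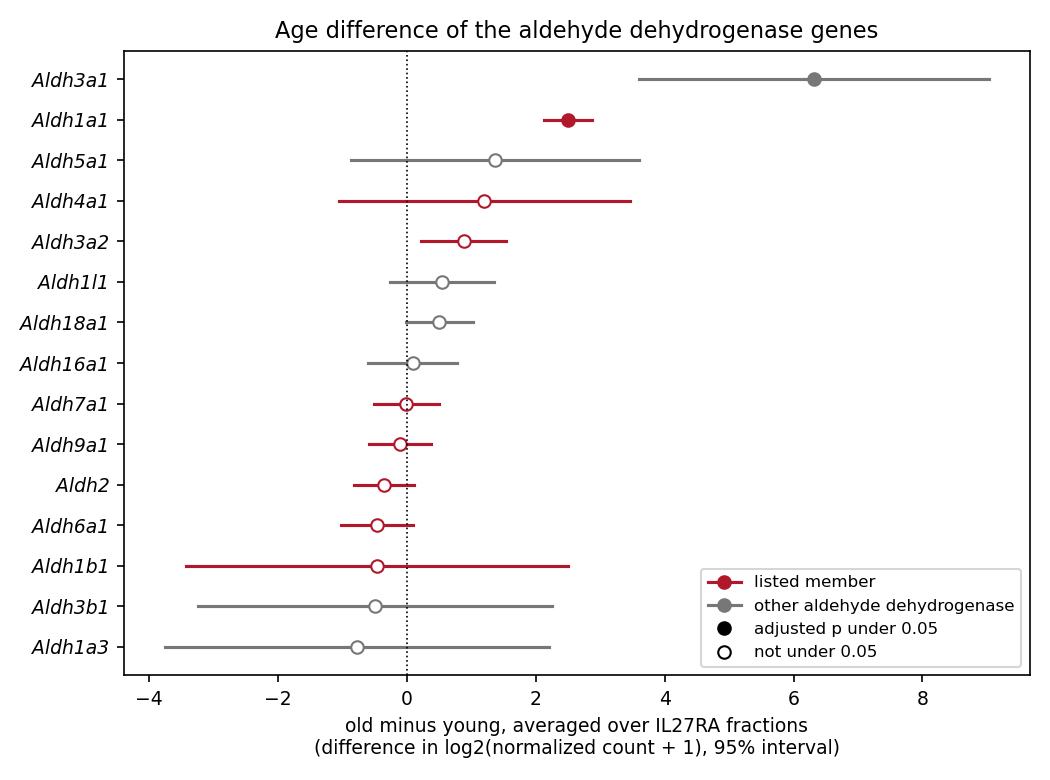
Difference, old minus young, averaged over the sorted fractions (x axis, log2(normalized count + 1)), with its 95% interval from limma, for the 8 tested members and 7 other aldehyde dehydrogenase genes (y axis). Filled points have an adjusted p under 0.05, which holds for Aldh1a1 at 2.50 and for Aldh3a1 at 6.31, and the interval of each remaining gene but Aldh3a2 includes 0.

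Taking the 8 tested members as a list, 3 averaged age differences were positive and 5 negative, with a median of -0.06 against 0.06 over all tested genes. In IL27RA+ cells the median was 0.04, against 0.05 over all genes, and in IL27RA- cells it was 0.35, against 0.04. In IL27RA- cells 4 differences were positive and 4 negative. The positive ones include Aldh4a1 at 2.43 and Aldh1b1 at 1.53, for which young IL27RA- replicate 2 had 0 reads and 1 read. Leaving out 1 library took these differences as low as -0.11 and -0.49, so the median of 0.35 is not firm.

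No member was called between the sorted fractions, and few genes of the whole table were. In old cells, IL27RA+ minus IL27RA- called 0 of 8 members with limma, 0 at an unadjusted p under 0.05 and 0 with voom on the recovered reads. Of all tested genes, 0.0203% were called with limma and 5.38% had an unadjusted p under 0.05, while voom called 0 genes. In young cells the counts were 0 of 8 with limma, 0 at an unadjusted p under 0.05 and 0 with voom. Of all tested genes, again 0.0203% were called with limma and 8.23% had an unadjusted p under 0.05, while voom again called 0 genes. The difference of Aldh1a1 was 0.03 ± 0.24 (SE, interval -0.49 to 0.55, adjusted p = 1) in old cells and 0.33 ± 0.24 (interval -0.19 to 0.85, adjusted p = 0.753) in young cells. The difference of Aldh2 was -0.32 ± 0.31 (interval -0.98 to 0.33) in old cells and -0.38 ± 0.31 (interval -1.04 to 0.28) in young cells. The smallest adjusted p of a member was 0.626, for Aldh4a1 in young cells, where the IL27RA- group holds the library with 0 reads. Medians of the 8 differences were -0.02 in old cells, against 0.02 over all genes, and -0.33 in young cells, against 0.04. The mRNA of the sorted receptor, Il27ra, was itself not called between the fractions at either age.

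**Figure D4:**
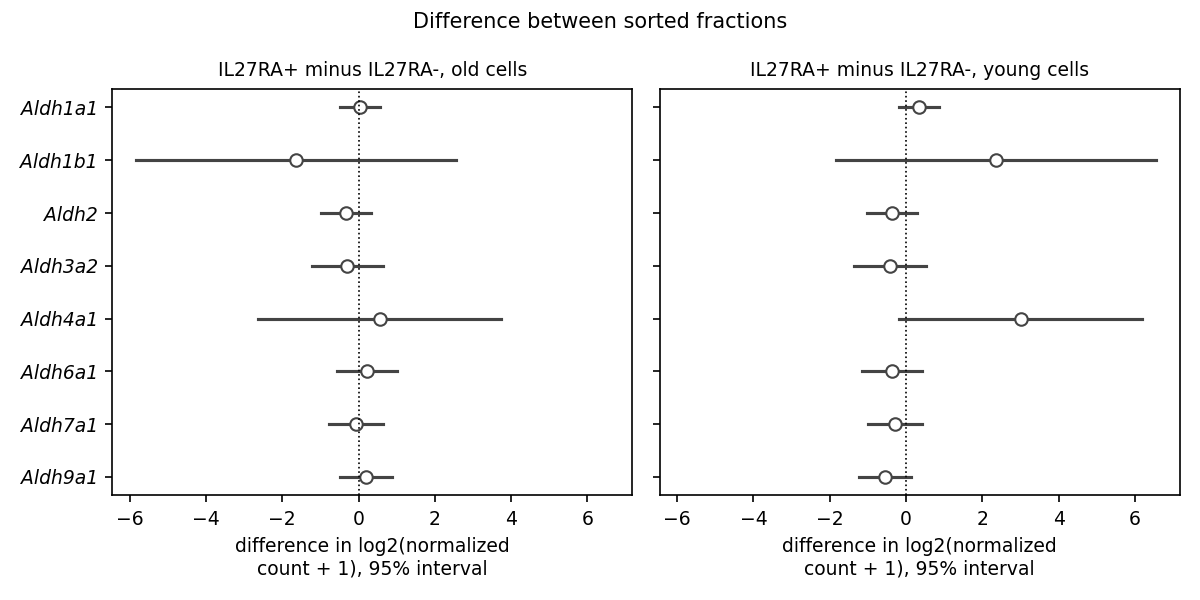
Difference, IL27RA+ minus IL27RA-, in old cells (left) and young cells (right) for the 8 tested members (y axis), in log2(normalized count + 1) with its 95% interval from limma (x axis). All 16 intervals include 0, and those of Aldh1b1 and Aldh4a1 are the widest.

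The age difference of no member was found to depend on the fraction. The age difference in IL27RA+ minus that in IL27RA- cells called 0 of 8 members with limma and 0 at an unadjusted p under 0.05. Of all tested genes 0.0% were called with limma, so the members do not differ from the whole table here, and 5.19% had an unadjusted p under 0.05. For Aldh1a1 it was -0.30 ± 0.34 (SE, interval -1.04 to 0.43, adjusted p = 0.960). The smallest adjusted p among members was 0.942.

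Of 12 names of other aldehyde dehydrogenases, 9 were in the table and 7 were tested. In the averaged age comparison 1 of the 7 was called higher in old cells, against 1.38% of all tested genes. This was Aldh3a1, which oxidises aromatic and medium-chain aldehydes. It had 218, 305 and 209 normalized counts in old IL27RA+ libraries and 282, 601 and 530 in old IL27RA- libraries. Young IL27RA+ libraries had 91.2, 0 and 0 normalized counts and young IL27RA- libraries 54.1, 0 and 0. The ages did not overlap, as for 2.06% of all tested genes. The averaged difference was 6.31 ± 1.27 (SE, adjusted p = 0.0193), a size that depends on the pseudocount because 4 young libraries were at 0, and the means were 357 ± 167 in old and 24.2 ± 39.3 in young cells (SD, n = 6 each). The call was lost in 5 of the 12 fits that left out 1 library, namely each of the old libraries except IL27RA- replicate 1, with adjusted p up to 0.0590. It was also lost with no variance trend (adjusted p = 0.0593) and without young IL27RA- replicate 2 and old IL27RA- replicate 1 together (adjusted p = 0.0648). The differences within single fractions were not called (adjusted p = 0.294 in IL27RA+ and 0.111 in IL27RA- cells). Aldh18a1, which makes the precursor of proline and ornithine, had an averaged difference of 0.50 ± 0.24 (SE, adjusted p = 0.346). Aldh16a1, Aldh1a3, Aldh1l1, Aldh3b1 and Aldh5a1 were not called either. Of the untested genes, Aldh1a2, another retinaldehyde dehydrogenase, had reads in 1 library, old IL27RA- replicate 1, at 99.2 normalized counts.

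Genes of the pathways around the members were taken as lists, and calls refer to the averaged age comparison. Of 33 names in retinoid metabolism and signalling, the pathway of Aldh1a1, 25 were in the table and 18 tested. In this list 1 was called higher and 0 lower, 6 had an unadjusted p under 0.05, and the median difference was 0.24, against 0.06 over all tested genes. Of all tested genes, 1.38% were called higher, 0.473% were called lower and 15.1% had an unadjusted p under 0.05. Without old IL27RA- replicate 1 the list had 3 calls, and without young IL27RA+ replicate 2 or young IL27RA- replicate 2 it had 2. The called gene was Rdh10, the retinol dehydrogenase that makes the retinaldehyde on which Aldh1a1 acts. Rdh10 averaged 1203 ± 581 normalized counts in old and 231 ± 194 in young cells (SD, n = 6 each), a difference of 2.51 ± 0.38 (SE, limma adjusted p = 0.00296). Its ages overlapped, with a lowest old library of 397 and a highest young library of 618 normalized counts. Within single fractions it was not called (limma adjusted p = 0.0625 in IL27RA+ and 0.0517 in IL27RA- cells). Dhrs3, which reduces retinaldehyde back to retinol, averaged 1658 ± 873 in old and 420 ± 235 in young cells but was not called (difference 1.93 ± 0.55, adjusted p = 0.0931).

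Of the 21 tested enzymes among 25 other genes that handle aldehydes and carbonyls, 1 was called higher and 0 lower, with a median of 0.04, against 1.38% called higher over all tested genes. The called gene was Gstm1, a glutathione transferase. Gstm1 averaged 6645 ± 73.5 normalized counts in old IL27RA+, 11920.3 ± 1374 in old IL27RA-, 5340.1 ± 528 in young IL27RA+ cells and, in the young IL27RA- group, 5383 ± 1407 (SD, n = 3 each). Its averaged difference was 0.75 ± 0.15 (SE, adjusted p = 0.0162). It was called in IL27RA- cells (1.17 ± 0.21, adjusted p = 0.0175) and not in IL27RA+ cells (0.32 ± 0.21, adjusted p = 0.721), and the test of the difference between the fractions was not past the threshold (adjusted p = 0.872). The call in IL27RA- cells was lost without any 1 of the 3 old IL27RA- libraries, when only the groups compared were fitted, with no variance trend, and without young IL27RA- replicate 2 and old IL27RA- replicate 1 together. Gstp1, another glutathione transferase, was not called at an averaged difference of 0.46 ± 0.16 (adjusted p = 0.167).

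In valine, leucine and isoleucine breakdown, where Aldh6a1 acts, 22 of 23 names were tested, 1 was called higher and 0 lower, with a median of 0.04, against 1.38% called higher over all tested genes. Without replicate 1 of either young group 2 genes of the list were called. The called gene was Hsd17b10, a mitochondrial dehydrogenase of isoleucine breakdown that is also a subunit of mitochondrial RNase P. Hsd17b10 averaged 4062 ± 447 normalized counts in old and 2318 ± 452 in young cells (SD, n = 6 each). Its ages did not overlap, as for 2.06% of all tested genes, and differed by 0.82 ± 0.15 (SE, limma adjusted p = 0.0116). Within single fractions it was not called (limma adjusted p = 0.0644 in IL27RA+ and 0.209 in IL27RA- cells). Mccc1, a subunit of the leucine pathway's carboxylase, was not called at a difference of -1.34 ± 0.33 (adjusted p = 0.0514). With no variance trend neither Gstm1 nor Hsd17b10 was called.

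Of all tested genes, 1.85% were called by limma in the averaged age comparison and 15.1% had an unadjusted p under 0.05. In the remaining lists 0 genes were called by limma. These were 8 tested genes around proline and glutamate semialdehyde (1 at an unadjusted p under 0.05, median 0.14), 5 of lysine and choline breakdown (0 at an unadjusted p under 0.05, median -0.02), 12 of carnitine, polyamine and amine oxidation (1 at an unadjusted p under 0.05, median 0.01) and 11 of fatty aldehyde and sphingolipid turnover (0 at an unadjusted p under 0.05, median 0.11). Abat, the transaminase that breaks down the neurotransmitter GABA, averaged 108 ± 77.0 normalized counts in old and 22.0 ± 40.8 in young cells (SD, n = 6 each) and was not called (difference 4.24 ± 1.18, adjusted p = 0.0881). Its difference depends on the pseudocount, since young libraries had a median of 0. Smox, the spermine oxidase, differed by -0.74 ± 0.37 (adjusted p = 0.371). Oat, which links ornithine to glutamate semialdehyde, differed by -0.45 ± 0.20 (adjusted p = 0.297). In lysine and choline breakdown, Gcdh differed by -0.87 ± 0.41 (adjusted p = 0.336) and Bhmt2 by -1.11 ± 0.96 (adjusted p = 0.649). The sphingosine kinase gene Sphk2 differed by 0.73 ± 0.36 (adjusted p = 0.365) and Sgpl1, the lyase that releases the fatty aldehyde which Aldh3a2 oxidises, by 0.60 ± 0.55 (adjusted p = 0.674).

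The genes whose pattern was most like that of Aldh1a1 were ranked by the root mean square difference of their log2 values from those of Aldh1a1, each centred on its own mean, over the 12 libraries. Among the nearest of 14802 genes were Cd53 (0.514), Ndrg1 (0.545), Fyb (0.545) and Fhl1 (0.548), against a median of 1.52. Among the members, Aldh3a2 was nearest at 0.989, followed by Aldh7a1 at 1.32, Aldh9a1 at 1.38, Aldh2 at 1.52, Aldh6a1 at 1.54, Aldh4a1 at 2.22 and Aldh1b1 at 3.01. Ndrg1, for example, averaged 2190.3 ± 211 normalized counts in old and 394 ± 223 in young cells (SD, n = 6 each). The ranking used the same 12 libraries, in which Aldh1a1 differed mainly by age. An age difference in the nearest genes therefore follows from how they were picked and is not a separate result.

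Markers of other marrow cells were summed per library beside the age difference of Aldh1a1. Of 7 neutrophil and granule genes, all in the table, the sum was 7782 to 13163 normalized counts in old and 3635 to 5480 in young libraries. Almost all of it was Prtn3, at 7609 to 13152 normalized counts in old and 3566 to 5140 in young libraries, with Mpo at 0 in all old libraries and Elane at 0 in all young ones. The part of this difference in the result for Aldh1a1 was not tested. The 9 macrophage genes in the table of 10 named summed to 378 to 5386 in old and 551 to 5540 in young libraries, and were higher in every IL27RA+ library than in every IL27RA- library of the same age. Of 9 erythroid genes, 7 were in the table and summed to 149 to 894 in old and 281 to 5046 in young libraries. The sum of 5046 was that of young IL27RA+ replicate 2 alone, and the next highest young library had 1325. The 6 stroma genes summed to 31.1 to 401 in old and 128 to 560 in young libraries. Of 7 B and plasma cell genes, 4 were in the table, and old IL27RA- replicate 1 held 313703 normalized counts, nearly all Igkc. Without that library the averaged age difference of Aldh1a1 was 2.64. Of the 4 T cell genes, Trac was in the table, at up to 114 in old libraries and 0 in young ones.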

How the data were processed

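Libraries of 50 sorted cells were made with Smart-Seq2, sonication, PCR and gel size selection, per the labels' protocols. Names listed per the submitters' processing notes were DESeq2, HTSeq, TopHat2 2.1.1 and FastQC 0.11.5, without their roles. A genome build was not given in the sources used here. The authors deposited log2 values. Judged from the numbers themselves, they are log2 of 1 plus the reads over a size factor. Dividing out the factor gave whole reads for 100% of non-zero values within a tolerance of 0.001. Of 20473 lines, 1 damaged line (Mtbp) and 15 repeated genes were left out, and 21 names turned into dates were restored. The damaged line put a stray value into the column of young IL27RA- replicate 2, which was therefore read without that line. Libraries held 11669083 to 24153167 reads in genes, and 3 reads equal 1.93 to 3.77 normalized counts.

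Tests used limma 3.58.1 in R 4.3.3, modelling the variance trend, on all 12 libraries' log2 values with group means, with 8 residual and 6.58 prior degrees of freedom. P-values were adjusted by Benjamini-Hochberg across the 14803 genes with 10 or more, before the log, in at least 3 libraries, and called under 0.05. The fit was tested on simulated data with independent libraries and changes placed in genes with reads in all 12 libraries. That test does not cover changes of genes with libraries at 0. Exon lengths and overlaps came from GENCODE M21, matched by identifier for 19007 genes (92.91%). The alternatives were other filters, a pseudocount of 5, quantile normalization, library weights, voom on recovered reads, only the groups compared, a replicate block, no variance trend and leaving out each library. Leaving out young IL27RA- replicate 2 and old IL27RA- replicate 1 together was chosen after seeing the data, as they had the lowest library weights. The members, lists and tests were chosen with earlier results of these data known. Named genes were all members, the called genes and the 2 smallest p values of each pathway list, and the 5 genes nearest to Aldh1a1, of which 1 is not reported here.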

Additional observations from a re-analysis of the deposited data

How the results depend on the processing

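The age difference of Aldh1a1 kept its direction and its call in every alternative run in the averaged comparison and in IL27RA+ cells. In IL27RA- cells it kept both except when only the groups compared were fitted, which left 0 members and 0 genes of the whole table called there. That fit has fewer libraries to estimate the spread, as does the same fit in IL27RA+ cells. In IL27RA+ cells the call was kept (limma adjusted p = 0.00622). Why the call was lost in IL27RA- cells was not tested. Over the 12 fits leaving out 1 library, the averaged difference of Aldh1a1 was 2.41 to 2.64 with adjusted p up to 8e-05. Aldh3a2 stayed above the threshold in every alternative run (averaged adjusted p 0.138 to 0.398). The scaling alternatives moved the median of all genes by less than 0.1.

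The number of genes called changed with the settings, and the cause was not tested. A count out of 8 members has little room to change and cannot be compared with it. Leaving out 1 library gave 140 to 431 genes in the averaged age comparison, 4 to 96 in IL27RA+ cells, 31 to 271 in IL27RA- cells, 1 to 24 between the fractions in old cells, 0 to 50 in young cells and 0 to 5 for the difference of age differences. For age in IL27RA+ cells, only the groups compared gave 37, library weights 138 and voom 13. For age in IL27RA- cells, no filter gave 64, only the groups compared 0, and leaving out young IL27RA- replicate 2 with old IL27RA- replicate 1 gave 25. Between the fractions in old cells, no filter gave 5, a pseudocount of 5 gave 7, only the groups compared 29, library weights 86, voom 0, no variance trend 25 and leaving out that pair 12. In young cells, no filter gave 8, the stricter filter (6 libraries at 50) 1, a pseudocount of 5 gave 5, quantile normalization 1, only the groups compared, library weights and voom 0, and no variance trend 27. The difference of age differences gave 17 with no variance trend.

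With a replicate block, the counts of called genes were 307 for averaged age, 43 and 99 for age in IL27RA+ and IL27RA- cells, 2 and 0 between the fractions in old and young cells, and 0 for the difference of age differences. Same-numbered libraries had correlated deviations over 0.1 in 1 of 18 pairs, and 7 of 12 libraries lay closest to their own number. These pairs include old with young libraries, which cannot share a mouse. Within an age, same-numbered fractions had correlations of 0.031, 0.0039 and 0.096 in old and 0.106, 0.028 and 0.017 in young cells. Pairs with different numbers, over all ages, had a median of -0.003. Whether both fractions of a number came from the same mice was not settled. The numbers were not used to pair samples in the main fit, which treats the libraries as independent.

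Directions turned only for differences that were not called. Averaged over the fractions, Aldh7a1 was 0.025 with quantile normalization, 0.045 with library weights and 0.018 without that pair, where Aldh4a1 was -0.16 and Aldh9a1 0.047. For age in IL27RA+ cells Aldh4a1 was 0.070 with library weights and 0.067 with voom. For age in IL27RA- cells without the pair, Aldh1b1 was -0.78 and Aldh4a1 -0.29. Between the fractions in old cells, Aldh1a1 was -0.12 and Aldh6a1 -0.044 with library weights, and both -0.25 without the pair. In young cells Aldh3a1 was -0.011 with quantile normalization and -0.72 without the pair. For the difference of age differences, Aldh2 was -0.056 with library weights and -0.29 without the pair, and Aldh4a1 0.27 without the pair.

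Leaving out 1 library turned further directions. For averaged age the ranges were -1.48 to 0.71 for Aldh1b1, -0.16 to 0.13 for Aldh7a1 and -0.067 to 1.95 for Aldh4a1. For age in IL27RA+ cells they were -0.44 to 0.40 for Aldh4a1, -0.21 to 0.37 for Aldh7a1 and -0.35 to 0.0092 for Aldh6a1. For age in IL27RA- cells they were -0.25 to 0.065 for Aldh7a1, -0.49 to 3.13 for Aldh1b1 and -0.11 to 3.91 for Aldh4a1. Between the fractions in old cells they were -3.41 to 0.72 for Aldh1b1, -0.25 to 0.22 for Aldh1a1, -0.18 to 0.11 for Aldh7a1, -0.054 to 0.37 for Aldh9a1 and -0.25 to 0.54 for Aldh6a1. In young cells they were -1.93 to 2.18 for Aldh3a1 and -0.55 to 0.021 for Aldh7a1. For the difference of age differences they were -0.16 to 0.45 for Aldh2, -0.28 to 0.39 for Aldh3a2, -3.07 to 1.03 for Aldh3a1, -0.089 to 0.49 for Aldh7a1 and -3.93 to 0.094 for Aldh4a1.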
